A study of Rattus norvegicus and Bos taurus with 6 samples.

Results

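Blood vascular endothelial nuclei were selected from 2 single-nucleus RNA-seq libraries of rat white fat, mesenteric perivascular adipose tissue (mesPVAT) and retroperitoneal (RP) fat. A nucleus was taken when it held at least 2 unique molecular identifiers (UMIs, each counting 1 captured transcript) of 8 endothelial genes, held more of them than of 11 genes of other cell types, and held no UMI of Prox1, the transcription factor that specifies lymphatic endothelium. The endothelial genes were Ptprb, Pecam1, Cyyr1, Shank3, Mecom, Flt1, Adgrl4 and Emcn. The opposing genes marked adipocytes (Plin1, Adipoq, Lipe), stromal progenitors (Pdgfra, Dcn, Fbn1), immune cells (Ptprc, Mrc1, Dock2) and mural cells (Notch3, Pdgfrb). The rule kept 436 of 3028 nuclei of mesPVAT and 146 of 2805 nuclei of RP fat, 582 of 5833 in all.

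The study tested a way of isolating nuclei from snap-frozen adipose tissue of rats and a cow. The rat tissue came from male Dahl SS rats (strain SS/HsdMcwiCrl, from Charles River Laboratory) on a normal diet, in the disease state labelled normal and with no treatment named, and their age is not given in the sources used here. All 4 rat libraries set beside each other below (mesPVAT, RP fat, thoracic aortic perivascular fat or taPVAT, and subscapular brown adipose tissue or BAT) were made with the Parse Evercode WT v3 kit in the batch labelled 2, and mesPVAT was also run on the 10x 3' v3 kit in the batch labelled 1. Each depot was 1 library per kit and whether tissue of several animals was pooled is not given in the sources used here, so no difference between depots was tested. The study's text places mesPVAT and RP fat in the opposite order of genes per nucleus to the deposited matrices. The libraries are named here by their deposited labels, and an exchange of these labels would reverse each direction given between mesPVAT and RP fat. The 95% intervals below are exact Poisson intervals for levels, exact binomial intervals for shares and exact conditional intervals for ratios, and they cover counting error only.

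Blood vascular endothelium lines arteries, capillaries and veins, and its nuclei carry a shared programme of adhesion, receptor and transcription factor genes on top of which each vessel segment has its own. Vascular endothelial growth factor signals through Kdr and is bound by the decoy receptor Flt1, the Tie receptors (Tek, Tie1) keep vessels quiescent, and Notch signalling separates arteries from veins. In fat, capillary endothelium also takes up fatty acids for the adipocytes, through the lipase anchor Gpihbp1, the carrier Fabp4 and the transcription factors Meox2 and Tcf15.

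The selected nuclei were shallow. Their median was 513.5 UMIs and 445.5 genes in mesPVAT and 512 UMIs and 453 genes in RP fat, and they held 353710 and 94732 UMIs in all. The other nuclei of the same libraries were shallower still, with medians of 324 and 206 UMIs, so the selected nuclei stood above the rest of their own library in depth, whereas in taPVAT (922 against 1368) and BAT (1170 against 1925) nuclei of the same rule stood below it. The largest mesPVAT nucleus held 19637 UMIs, 5.55% of those of the set, with 20 UMIs of the endothelial genes and 15 of the opposing ones, and the next held 8863. No RP fat nucleus passed 2948 UMIs. The Parse libraries shared no barcode, which the design fixed in advance, since each depot had its own first-round barcoding wells. No doublet caller was run. The study's methods name scDblFinder for finding doublets in the aligned data and do not say that doublets were taken out of the deposited matrices.

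**Figure D1:**
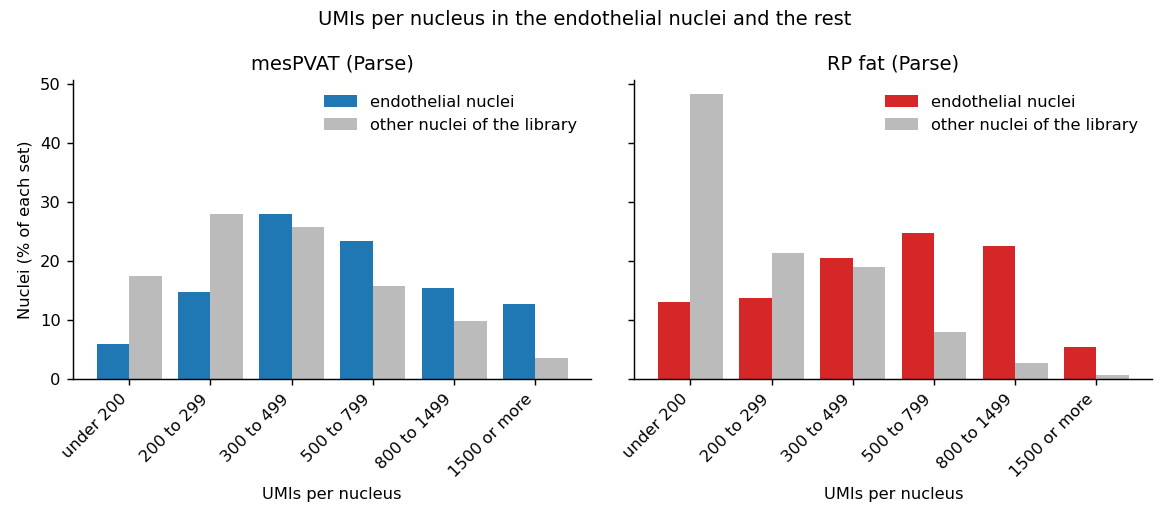
Share of nuclei (percent of each set, y axis) by UMIs per nucleus (x axis, 6 ranges) in the mesPVAT and RP fat Parse libraries, for the endothelial nuclei (coloured) and all other nuclei (grey). In RP fat 48.3% of the other nuclei but 13.01% of the endothelial ones held under 200 UMIs, and in mesPVAT 17.4% and 5.96%.

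The rule took a larger share of deeper nuclei. It took 14.4% (13.2 to 15.7) of mesPVAT nuclei and 5.20% (4.41 to 6.09) of RP fat nuclei, beside 19.6% in taPVAT, 25.1% in BAT and 2.04% of the 5887 nuclei of mesPVAT on 10x. Within mesPVAT the share was 5.46% of nuclei under 200 UMIs and 37.9% of those with 1500 or more, and within RP fat it was 1.46% and 30.8%. Among nuclei with at least 500 UMIs it was 23.0% in mesPVAT (224 of 976) and 20.3% in RP fat (77 of 380). When each nucleus with 200 UMIs or more was thinned to 200, it was 6.97% (6.02 to 8.03) and 3.13% (2.31 to 4.14), with 476 and 1302 shallower nuclei left out. In both of these subsets mesPVAT had the higher share. By range of depth the order was not constant, since from 800 to under 1500 UMIs the share was 20.8% in mesPVAT and 31.1% in RP fat (33 endothelial beside 73 other nuclei), and at 1500 UMIs or more 37.9% and 30.8%.

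Parse nuclei of each depot were read in 2 sublibraries, which are aliquots of 1 pool of barcoded nuclei. In mesPVAT they gave 14.3% and 14.5%. In RP fat they gave 3.52% (68 of 1930 nuclei) and 8.91% (78 of 875), and all nuclei of these sublibraries had medians of 163 and 326 UMIs. Among RP fat nuclei with at least 200 UMIs the sublibraries gave 7.15% (5.39 to 9.27) and 9.67% (7.68 to 12.0), intervals that overlap.

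Many selected nuclei were close to the edge of the rule. In mesPVAT 149 of the 436 (34.2%) held exactly 2 endothelial UMIs, and in RP fat 73 of the 146 (50.0%), against 7.17% in taPVAT and 4.57% in BAT. Their endothelial UMIs came from a single gene in 50 mesPVAT and 25 RP fat nuclei. UMIs of opposing genes were found in 51.8% and 48.6% of the selected nuclei. Just outside, 283 mesPVAT and 333 RP fat nuclei held 1 endothelial UMI and no opposing one, 47 and 18 held equal numbers of both at 2 or more, and 87 and 11 held 2 or more but fewer than opposing UMIs. Prox1 alone kept out 11 and 10 nuclei.

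Levels below are CPM, the UMIs of a gene summed over the nuclei of a set per 1000000 UMIs of that set. The 8 endothelial genes chose the nuclei, so their levels by the full rule are a description: in mesPVAT they ran from 235 CPM for Adgrl4 to 1761 for Mecom, and in RP fat from 232 for Emcn to 1288 for Mecom. Leaving out each gene in turn and choosing the nuclei on the other 7 gave a level that did not choose its own nuclei. In nuclei so chosen Pecam1, the adhesion molecule at endothelial junctions, was at 565 CPM in mesPVAT against 131 in the other nuclei, a ratio of 4.30 (3.48 to 5.32). In RP fat it was at 412 CPM against 95.7, again 4.30 (2.78 to 6.55). Ptprb, the phosphatase that dephosphorylates Tek and VE-cadherin, was 3.75 times the other nuclei in mesPVAT and 3.08 times in RP fat. Shank3, a scaffold protein, was 4.30 and 4.35 times higher, the highest of the 8 in RP fat.

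Over the 8 genes the ratio ran from 2.34 (Flt1) to 4.30 in mesPVAT and from 2.01 (Mecom) to 4.35 in RP fat, every interval lying above 1. In the brown depots the same step gave 5.18 to 11.9 in taPVAT and 7.17 to 14.4 in BAT. For each of the 8 genes the white ratio thus lay below both brown ratios. The other nuclei differed as well, with Ptprb at 221 and 180 CPM in the other nuclei of mesPVAT and RP fat, and at 101 and 90.6 in those of taPVAT and BAT.

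**Figure D2:**
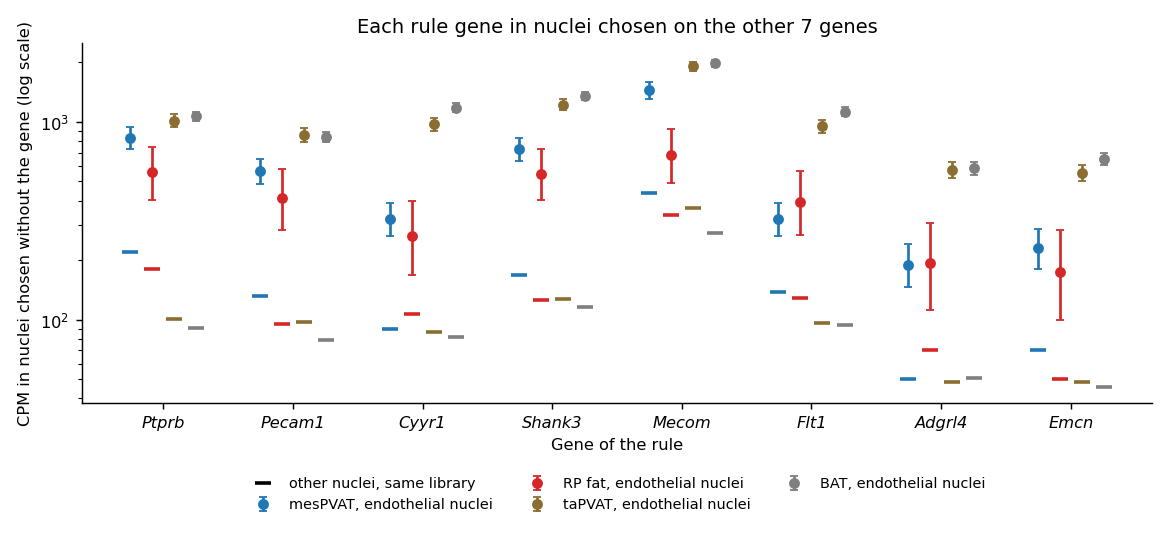
CPM (y axis, log scale) of each of the 8 endothelial genes of the rule (x axis) in nuclei chosen on the other 7 (points with 95% Poisson intervals), and in the nuclei not so chosen (dashes), in 4 Parse libraries. For each gene and library the point stands above the dash, and the points and dashes stand closer together in mesPVAT and RP fat than in taPVAT and BAT.

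Endothelial genes that the rule did not use were also higher in the selected nuclei. A list of 18 pan-endothelial genes summed to 3820 CPM (3619 to 4029) in mesPVAT endothelial nuclei and 1158 in the other nuclei, a ratio of 3.30 (3.06 to 3.55). In RP fat it summed to 3051 CPM (2709 to 3423) against 1151, a ratio of 2.66 (2.31 to 3.03). In mesPVAT 17 of the 18 genes were at least 2-fold above the other nuclei, and in RP fat 12 of the 16 that had at least 10 UMIs in the library. Over all genes with at least 20 UMIs in the selected nuclei and found in at least 3% of them, 10.8% of 4042 reached 2-fold in mesPVAT and 10.4% of 636 in RP fat. The list stood 7.90-fold above the other nuclei in taPVAT, 9.53-fold in BAT and 8.14-fold in mesPVAT on 10x. In taPVAT and BAT the list was at 5696 and 5968 CPM in the endothelial nuclei and at 721 and 626 in the others, so the white Parse libraries were lower in the endothelial nuclei and higher in the other nuclei.

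Adgrf5, an adhesion receptor of endothelium, had 248 UMIs in 159 mesPVAT nuclei (701 CPM against 219 in the other nuclei) and 37 UMIs in 22 RP fat nuclei (391 against 129). Ldb2, a cofactor of LIM-domain proteins, was at 481 CPM against 158 in mesPVAT and at 359 against 213 in RP fat. Egfl7, a matrix protein secreted by endothelium, was at 331 against 70.6 CPM and at 507 against 112. The transcription factor Erg was less than 2-fold higher in either library, at 368 against 195 CPM and 338 against 195.

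Detection of endothelial genes outside the rule was low. For the genes given here it lay above that in adipocyte nuclei in mesPVAT. With 200 UMIs drawn per nucleus, Adgrf5 was found in 13.9% (10.7 to 17.6) of mesPVAT endothelial nuclei and in 1.01% of 296 nuclei with at least 2 adipocyte UMIs and none of the 8 endothelial genes. The unthinned share in the endothelial nuclei was 36.5%, at a median of 513.5 UMIs against 569 in the adipocyte nuclei. Nos3, the endothelial nitric oxide synthase, was found in 5.61% of the thinned mesPVAT nuclei and 0 of the 296, which allows up to 1.01%. In RP fat only 51 adipocyte nuclei were deep enough, and the share for Nos3, 3.94% (1.29 to 8.95), lay within the 5.88% that 0 of 51 allows. Adgrf5 was found there in 6.30% (2.76 to 12.0) against 0 of 51 (exact upper bound 6.98%), intervals that overlap.

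Markers of most other cell types stood below the rest of the library. The rule left nuclei richer in opposing genes among the other nuclei. Lower adipocyte, stromal and immune levels were therefore partly set by the selection. In mesPVAT the adipocyte list (11 genes that the rule did not use) summed to 1086 CPM in the endothelial nuclei against 3134. This was 0.347 times the other nuclei (0.311 to 0.385). In RP fat it summed to 802 against 1148, 0.707 times (0.545 to 0.884). The median ratio of its genes was 0.280 in mesPVAT and 0.857 in RP fat. Genes of stromal progenitors were at 0.790 and 0.729 times, immune genes at 0.802 and 0.751 times, and lymphatic genes other than Prox1 at 0.662 (0.519 to 0.821) and 0.830 (0.551 to 1.15) times the other nuclei, the RP fat interval spanning 1. Of the 7 lymphatic genes Prox1 was at 0 by the rule and Ccl21 was at 0 in the endothelial nuclei of mesPVAT and RP fat. The list of brown adipocyte genes was at 0.588 and 0.710 times, and Ucp1, the uncoupling protein, had 18 UMIs in mesPVAT and 3 in RP fat endothelial nuclei.

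Mural genes instead stood above the other nuclei in mesPVAT, where Schwann genes were at 1.07-fold (0.616 to 1.69). The 9-gene mural list summed to 1552 CPM against 776 in the other nuclei, a ratio of 2.00 (1.80 to 2.22), while in RP fat it stood at 823 against 841. In mesPVAT the median ratio of its 8 genes with at least 10 UMIs was 1.51. Smooth muscle myosin Myh11 made up 361 of the 549 UMIs, in 95 nuclei with up to 57 UMIs in 1 of them. Without the 6 nuclei above 4000 UMIs the list was at 1430 CPM, and in the 210 nuclei with no UMI of an opposing gene it was at 909. The pan-endothelial list was at 3367 CPM in those 210 nuclei, and the part of mural transcripts in any other value of mesPVAT was not tested.

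The genes that most set the endothelial nuclei apart were then listed for each library. Among genes outside the rule with at least 20 UMIs in the selected nuclei, found in at least 3% of them, the 15 with the largest ratio to the other nuclei were taken. In mesPVAT Sox17, a transcription factor of arterial endothelium, came first with 29 UMIs in 28 nuclei, 82.0 CPM against 8.44, a ratio of 9.21 (4.71 to 21.6). Next among named genes came Doc2b, a calcium sensor of exocytosis, at 7.37-fold, Plk2, a polo-like kinase, at 6.70-fold, and Rasip1, a protein needed for vessel lumens, at 6.43-fold. The guidance ligand Sema3g and the Notch ligand Dll1 followed at 6.05-fold and 5.94-fold. The others with symbols were Crhr2, Rasa4, Ushbp1, Jag2, Fscn1 and Egfl7, at 4.67-fold to 5.69-fold. Crhr2, a receptor of the corticotropin-releasing hormone family, had the lowest ratios of the 15 elsewhere, at 1.06-fold in RP fat and 1.41-fold in BAT.

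In RP fat Rasip1 came first with 20 UMIs in 15 nuclei, 211 CPM against 25.3, a ratio of 8.32 (4.23 to 16.5). Nos3 followed with 20 UMIs in 15 nuclei and 4.75-fold (2.54 to 8.33). The alarmin Il33 was also 4.75-fold higher, with 20 UMIs in 12 nuclei, and the cytokine receptor subunit Il6st was 4.72-fold higher. Egfl7 reached 4.57-fold with 48 UMIs in 29 nuclei. Among the remaining genes, Potef, Lifr, Nuak1, Mrtfb, Scarb1, Wasf2, Plxnd1 and Leng8, lay between 3.08-fold and 4.11-fold. The smaller number of UMIs in RP fat set which genes could enter, since 636 genes reached the minimum there and 4042 in mesPVAT.

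The leading lists shared 3 of their 15 genes, Egfl7, Rasip1 and a gene without a symbol (ENSRNOG00000074425). Of the mesPVAT leaders 11 of 15 were at least 2-fold higher in RP fat endothelial nuclei too, 15 in taPVAT and 14 in BAT. Of the RP fat leaders 9 of 15 reached 2-fold in mesPVAT, 12 in taPVAT and 13 in BAT. Rasip1 was at 209, 211, 228 and 171 CPM in the endothelial nuclei of mesPVAT, RP fat, taPVAT and BAT, so its level differed little while its level in the other nuclei ran from 17.1 to 32.2.

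The promoter of Nos3 is shown because Nos3 was among the genes that separated endothelial from other nuclei in both white libraries, and that of Rbp7 because among genes higher in mesPVAT than in RP fat its ratio had the interval farthest from 1 (values below). Both are the 250 bases before the transcription start in the RefSeq table for build GRCr8, each from the minus strand of its chromosome and written 5′ to 3′ of the gene, Nos3 at chr4:11706582-11706831 and Rbp7 at chr5:165177400-165177649. Capitals mark CAGGAA or CCGGAA, which are longer forms of the GGAA core that ETS factors such as Erg bind, and TATAA, on either strand.
Nos3: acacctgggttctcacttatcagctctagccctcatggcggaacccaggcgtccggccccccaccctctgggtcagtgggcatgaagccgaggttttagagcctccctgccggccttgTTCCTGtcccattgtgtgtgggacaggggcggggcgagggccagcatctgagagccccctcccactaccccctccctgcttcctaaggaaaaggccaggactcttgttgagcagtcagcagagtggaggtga
Rbp7: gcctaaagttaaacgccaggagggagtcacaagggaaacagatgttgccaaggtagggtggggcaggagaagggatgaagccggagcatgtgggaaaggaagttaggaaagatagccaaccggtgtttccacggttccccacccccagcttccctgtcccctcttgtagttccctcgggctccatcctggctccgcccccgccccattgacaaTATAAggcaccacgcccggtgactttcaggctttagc

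Nos3 held 1 CAGGAA on the reverse strand and no TATAA, and Rbp7 held 1 TATAA and neither CAGGAA nor CCGGAA. The shorter GGAA was not searched for, and it occurs unmarked in both sequences. Over 33469 promoters of this length, 34.4% held CAGGAA or CCGGAA and 24.0% held TATAA. Of the 27 different genes leading in mesPVAT or RP fat, 18 had a promoter in the table, and 9 of these held CAGGAA or CCGGAA and 3 held TATAA. These are matches of letters, and no binding was measured.

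Among signalling genes, those of Notch stood out most in mesPVAT. The Notch list summed to 1066 CPM against 500 in the other nuclei (2.14-fold, 1.87 to 2.43), with 5 of the 9 genes that had 10 UMIs reaching 2-fold, and in RP fat to 644 against 480 (1.36-fold, 1.01 to 1.77) with 4 of 8. The endothelial receptor Notch4 had 112 UMIs in 78 mesPVAT nuclei (317 CPM against 86.7) and 16 UMIs in 14 RP fat nuclei (169 against 30.6). Notch1 was at 181 against 58.3 and at 127 against 50.6 CPM. Rbpj, the transcription factor through which all Notch receptors act, was near the other nuclei in mesPVAT (124 against 111 CPM) and below them in RP fat (42.2 against 157, from 4 UMIs).

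Several growth factor receptors were higher than in the other nuclei and Vegfa was lower. Nrp1, a co-receptor, was at 464 CPM against 284 in mesPVAT and 391 against 253 in RP fat. Tek was at 235 CPM against 73.7 in mesPVAT and 211 against 82.6 in RP fat. Kdr, the main receptor of vascular endothelial growth factor, was at 246 against 77.5 and 137 against 66.6 CPM. Flt4 and Nrp2 were at 76.3 against 40.7 and 198 against 99.0 CPM in mesPVAT, but at 31.7 (3 UMIs) against 86.6 and 95 against 108 in RP fat. The growth factor Vegfa was at 136 against 549 CPM in mesPVAT and 116 against 236 in RP fat. The whole list of 13 genes was 1.25-fold (1.14 to 1.37) and 1.18-fold (0.957 to 1.41) above the other nuclei. For bone morphogenetic protein and transforming growth factor beta the list stood at 1.58-fold and 1.40-fold. Its co-receptor Eng was at 382 against 88.3 CPM in mesPVAT and 158 against 56.0 in RP fat.

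Genes of contact and adhesion followed. Cell junction genes were 1.59-fold and 1.68-fold higher, and VE-cadherin (Cdh5) was at 192 against 57.6 CPM in mesPVAT but at 52.8 (17.1 to 123) against 42.6 in RP fat. Leukocyte adhesion genes were 1.29-fold and 1.98-fold higher, with few UMIs (139 and 40), and Sele was at 0 in RP fat endothelial nuclei. Basement membrane genes were 1.20-fold and 1.45-fold higher, with Col4a1 at 1411 against 1053 and 866 against 569 CPM.

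Endothelial transcription factors summed to 3794 CPM in mesPVAT, 2.07-fold (1.93 to 2.21) above the other nuclei with 13 of 20 genes at 2-fold, and to 2375 CPM in RP fat, 1.42-fold (1.22 to 1.63) with 5 of 15. The ETS factor Fli1 was at 594 against 177 CPM in mesPVAT and 201 against 111 in RP fat. Epas1, the hypoxia-inducible factor of endothelium, was at 481 against 156 and 222 against 115. Vasoactive genes were 1.78-fold and 1.82-fold, haemostasis genes 1.97-fold and 1.85-fold, and mechanosensing genes 1.61-fold and 1.37-fold above the other nuclei. Guidance genes stood at 1.35-fold and 1.12-fold. Transporters did not stand above the rest in mesPVAT (0.908-fold, 0.736 to 1.10) and were at 1.37-fold (1.00 to 1.79) in RP fat.

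Fatty acid handling genes, 18 measured, summed to 2279 CPM against 1486 in mesPVAT (1.54-fold) and 1309 against 949 in RP fat (1.39-fold). The same list stood below the other nuclei in taPVAT (0.885-fold), BAT (0.936-fold) and mesPVAT on 10x (0.725-fold). The lipoprotein receptor Scarb1 had the most UMIs, 203 UMIs in 118 mesPVAT nuclei (574 against 170 CPM) and 33 in 23 RP fat nuclei (348 against 112). Fabp4 was at 359 against 217 and 127 against 115 CPM. Lipoprotein lipase (Lpl), which adipocytes also make, was lower than in the other nuclei at 221 against 384 and 158 against 229. Sprouting and proliferation genes were sparse, with 15 and 22 UMIs in RP fat, and their ratios there had intervals spanning 1 (0.466 to 1.46 and 0.592 to 1.51).

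Immediate early and stress genes were above the other nuclei in both white Parse libraries, at 359 against 217 CPM in mesPVAT and 823 against 440 in RP fat. The higher level of RP fat held in its other nuclei as well, since the mesPVAT over RP fat ratio was 0.434 (0.326 to 0.586) in endothelial and 0.494 (0.420 to 0.581) in other nuclei.

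**Figure D3:**
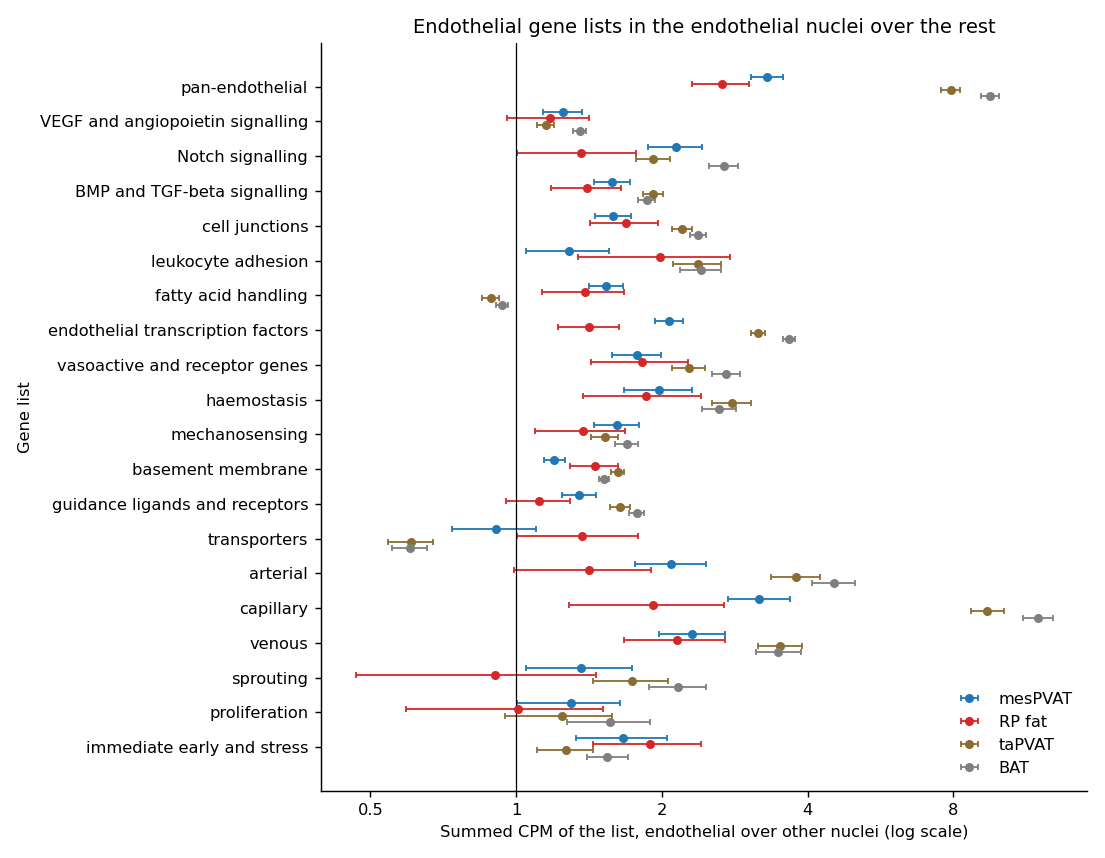
Ratio of the summed CPM of 20 endothelial gene lists (y axis) in the endothelial nuclei over the other nuclei of the same library (x axis, log scale, 1 meaning equal), with exact 95% conditional intervals, in 4 Parse libraries. The pan-endothelial list lies at 3.30 in mesPVAT and 2.66 in RP fat and at 7.90 and 9.53 in taPVAT and BAT, and the capillary list lies farthest apart between white and brown depots.

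The segments of the vascular bed were read from lists of arterial, capillary and venous genes. Capillary genes summed to 981 CPM (881 to 1090) in mesPVAT and 401 (284 to 551) in RP fat, 3.17-fold and 1.92-fold above the other nuclei. Arterial genes summed to 622 and 486 CPM, 2.09-fold and 1.41-fold, and the RP fat interval (0.990 to 1.90) reached 1. Venous genes summed to 744 and 950 CPM, 2.31-fold and 2.15-fold. Set against RP fat, mesPVAT endothelial nuclei were therefore 2.39-fold (1.75 to 3.52) higher in capillary genes, 1.26-fold (0.929 to 1.80) in arterial genes and 0.777-fold (0.614 to 1.01) in venous genes. The other nuclei of these libraries differed by 1.45, 0.851 and 0.724 in the same lists. In nuclei with no opposing UMI the capillary list was at 1147 CPM in mesPVAT and 410 in RP fat.

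**Figure D4:**
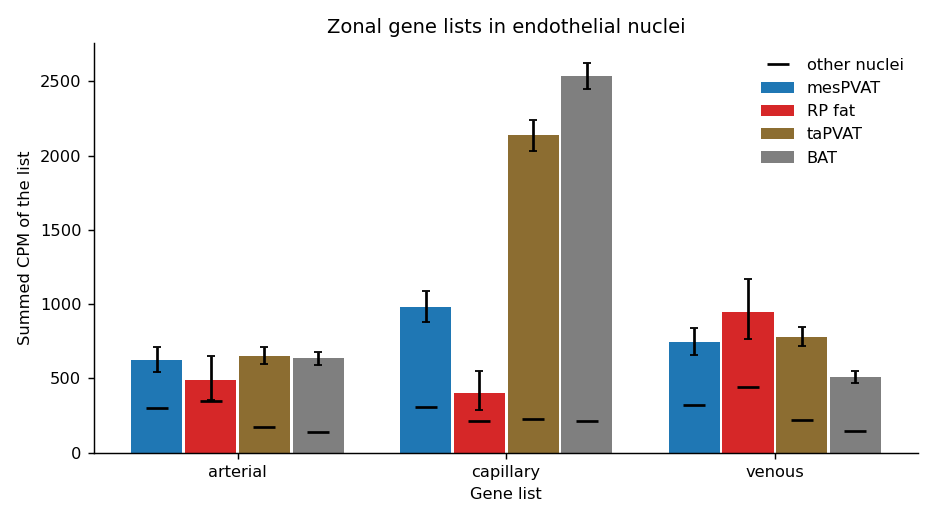
Summed CPM (y axis, starting at 0) of the arterial, capillary and venous lists (x axis) in the endothelial nuclei of 4 Parse libraries (bars, 95% Poisson intervals), with the other nuclei of each library as a black dash. Capillary genes stand at 981 and 401 CPM in mesPVAT and RP fat and at 2136 and 2537 in taPVAT and BAT, while arterial and venous bars lie between 486 and 950.

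Meox2, a homeobox factor of capillary endothelium, had the most UMIs of the capillary list in mesPVAT. There were 107 UMIs in 77 of the 436 mesPVAT nuclei, 303 CPM against 80.6 in the other nuclei, and 7 UMIs in 6 of the 146 RP fat nuclei, 73.9 CPM against 64.0. The sublibraries gave 276 and 337 CPM in mesPVAT and 96.2 and 56.4 in RP fat. Btnl9 was at 184 and 73.9 CPM, and Gpihbp1 at 105 and 31.7 (3 UMIs). Among venous genes Vwf, the clotting factor carrier, was at 195 CPM in mesPVAT and 285 in RP fat, with overlapping intervals (152 to 247 and 188 to 415).

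Per nucleus, 42.2% of mesPVAT endothelial nuclei held a capillary UMI, 28.0% an arterial and 32.6% a venous one, and in RP fat 19.2%, 21.2% and 34.2% did. UMIs of at least 2 of the lists were found in 131 of 436 and 23 of 146 nuclei, and none of any list in 145 and 63. Nuclei with a capillary UMI were deeper than those without, with medians of 633 against 436 UMIs in mesPVAT and 740.5 against 485.5 in RP fat. At this depth a nucleus could not be assigned to a segment, and the lists describe the sets only.

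Gene by gene, mesPVAT and RP fat endothelial nuclei were compared over the 2380 genes with at least 40 UMIs in both sets together, after adding 1 UMI to each count. In mesPVAT 290 genes were at least 2-fold higher, 12.2% of those tested, and in RP fat 111, 4.66%. The median ratio of mesPVAT over RP fat was 1.10. In the other nuclei of the libraries 264 of the 290 differed in the same direction and 118 by at least 2-fold, and 100 of the 111 in the same direction and 7 by at least 2-fold. Over all 2380 genes 302 differed by at least 2-fold in the other nuclei. There the median mesPVAT over RP fat ratio was 1.82 for the 290 genes, 0.690 for the 111 and 1.09 for all 2380.

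Rbp7, a retinol-binding protein of capillary endothelium and fat, gave the ratio whose interval lay farthest from 1 among genes higher in mesPVAT. It had 190 UMIs in 114 of the mesPVAT nuclei and 5 in 5 of the RP fat nuclei, 537 CPM (464 to 619) against 52.8 (17.1 to 123), a ratio of 8.53 (4.29 to 31.7). The sublibraries gave 512 and 570 CPM in mesPVAT and 24.1 and 75.2 in RP fat, the latter from 1 and 4 UMIs. As aliquots of 1 pool they are not replicates of a depot. The other nuclei held 142 and 29.3 CPM, a ratio of 4.66 (3.11 to 7.92). In taPVAT and BAT Rbp7 was at 210 and 292 CPM in endothelial nuclei and at 25.6 and 28.7 in the others, so RP fat was the library in which the endothelial nuclei stood least above the rest.

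Adcy4, an adenylate cyclase, had 57 UMIs in 48 mesPVAT nuclei and 1 in RP fat, 161 CPM against 10.6, a ratio of 7.77 (2.63 to 613). Its ratio in the other nuclei was 1.83 (1.07 to 3.58), and taPVAT and BAT endothelial nuclei were at 119 and 138 CPM. Ccdc88a, an actin-binding regulator of migration, was at 204 CPM from 72 UMIs against 2 UMIs in RP fat, and Lsp1, a leukocyte actin-binding protein, had 55 UMIs against 1. The kinase Prpf4b was at 614 against 116 CPM, 4.87-fold (2.90 to 10.7), and 3.93-fold in the other nuclei.

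Several further genes higher in mesPVAT were at least as different outside the endothelium. The cytoskeletal linker Dst was at 4792 CPM against 1415, 3.37-fold, and 4.19-fold in the other nuclei. Col5a3, a collagen chain, was 3.80-fold higher among endothelial and 10.95-fold among other nuclei, where it reached 6518 CPM in mesPVAT. The nuclear envelope protein Syne2 was 3.36-fold and 6.11-fold, and the splicing factor Srrm2 3.38-fold and 4.69-fold higher. The remaining named genes were Rbbp6 (6.29-fold, from 93 against 3 UMIs) and Rsrp1 (5.04-fold, from 93 against 4).

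In the other direction the ratio farthest from 1 was that of a gene without a symbol, ENSRNOG00000088851. It held 2289 UMIs in 123 of the 146 RP fat nuclei, 24163 CPM, and 495 UMIs in 195 mesPVAT nuclei, 1399 CPM. Its sublibraries gave 25667 and 22987 CPM in RP fat and 1356 and 1456 in mesPVAT. The other nuclei held 21019.6 CPM in RP fat and 718 in mesPVAT, and in taPVAT and BAT endothelial nuclei it was at 1443 and 1951 CPM. With the top gene of each library left out of the totals, 308 genes were higher in mesPVAT and 107 in RP fat.

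Other genes higher in RP fat had few UMIs. Sorcs2, a sorting receptor, was at 348 CPM (33 UMIs) against 102 (36 UMIs), a mesPVAT over RP fat ratio of 0.292 (0.177 to 0.484), and 0.566 in the other nuclei. Grin2a and Glra3, subunits of neurotransmitter receptors, were at ratios of 0.323 and 0.327, and Prkcb, a protein kinase C, was at 0.321. D430041D05Rikl, Cpne4, Ksr2, Efcab3, Cfap299 and Bnc2 lay between 0.304 and 0.371. The ratios of these 10 genes in the other nuclei ran from 0.474 to 0.913, on the same side of 1.

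**Figure D5:**
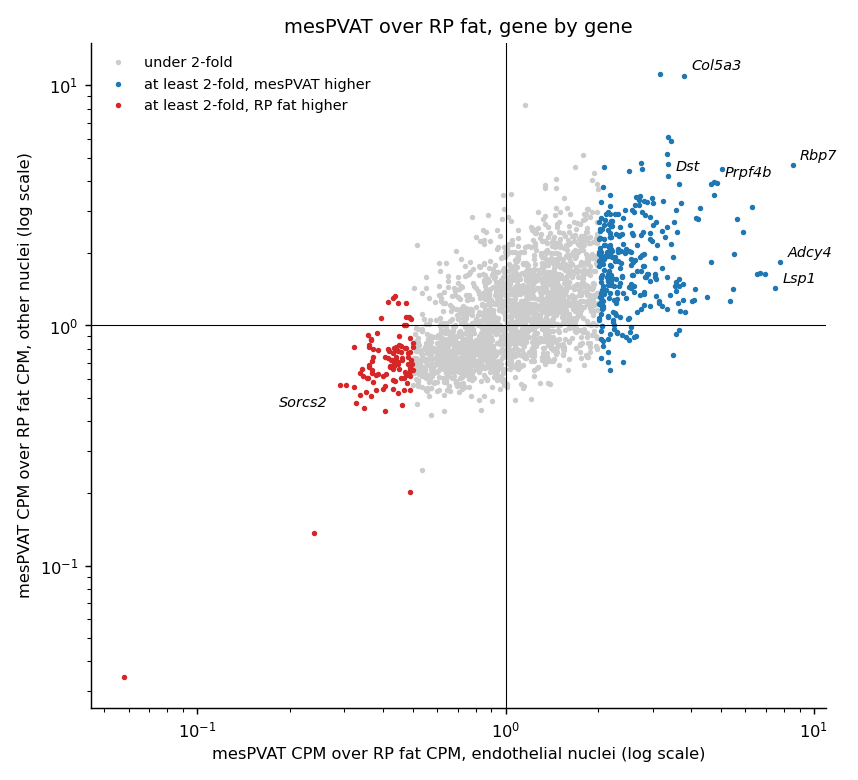
Each of 2380 genes by its mesPVAT over RP fat CPM ratio in endothelial nuclei (x axis, log scale) and in the other nuclei (y axis, log scale), with genes at least 2-fold higher in mesPVAT in blue (290) and in RP fat in red (111). Col5a3 lies at 3.80 and 10.95, Rbp7 at 8.53 and 4.66, and the point at the lower left, ENSRNOG00000088851, at 0.0580 and 0.0342.

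Of the lists, 3 of the 4 capillary genes tested were at least 2-fold higher in mesPVAT (Meox2, Btnl9 and Gpihbp1), as were 3 of 8 fatty acid handling genes (Meox2, Gpihbp1 and Fabp4), 2 of 5 Notch genes (Jag1 and Rbpj), 2 of 12 pan-endothelial genes (Cdh5 and Eng), 2 of 11 transcription factors (Fli1 and Epas1) and 2 of 6 vasoactive genes (Npr3 and Calcrl). Of all 2380 genes tested, 12.2% were higher in mesPVAT and 4.66% in RP fat. The pan-endothelial and transcription factor counts lay near the mesPVAT share. The insulin receptor Insr was higher in RP fat (190 against 76.3 CPM). Of the lists of other cell types, Myh11, Plin4, Pdgfrb and Lipe were past 2-fold in mesPVAT and Ppargc1a in RP fat. No gene of the VEGF (6 tested), mechanosensing (5), basement membrane (11), guidance (8) or haemostasis (3) lists reached 2-fold. The interval of Jag1 and that of Calcrl reached below 1 (0.968 to 10.3 and 0.937 to 7.62), and the other capillary gene tested, Kdr, was at 1.68 (0.995 to 3.50).

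For Meox2 the ratio was 3.62 (1.92 to 10.4) in endothelial and 1.25 (0.887 to 1.81) in other nuclei. Fli1 was at 2.83 (1.85 to 5.02) and 1.59, Cdh5 at 3.08 (1.49 to 11.6) and 1.33, and Eng at 2.28 (1.41 to 4.43) and 1.55. Epas1 was at 2.08 (1.37 to 3.59) and 1.35. Npr3, a clearance receptor of natriuretic peptides, was at 4.73 (1.83 to 59.0) and at 3.96 in the other nuclei. Scarb1 and Nos3 stayed under 2-fold, at 1.61 (1.14 to 2.46) and 1.35 (0.866 to 2.40).

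The white endothelial nuclei were then set beside those of taPVAT (530 nuclei, 755951 UMIs) and BAT (678 nuclei, 1295180 UMIs), chosen by the same rule. A gene was called when both white levels were at least 2-fold above both brown levels, or the reverse. Of 8825 genes with at least 40 UMIs over the 4 sets, 1045 were higher in white (11.8%) and 422 in brown (4.78%). Which side had more calls depended on the nuclei and genes used, with 159 white and 230 brown in nuclei with no opposing UMI (2375 genes tested), 12 and 56 after thinning (829) and 277 and 353 among genes with at least 100 UMIs (4930). Of the 1045, 945 (90.4%) were also at least 2-fold apart in the same way in the other nuclei, and of the 422, 256 (60.7%), beside 17.2% and 11.7% of all genes tested. The greater part of the white and brown difference was therefore shared by the endothelial and the other nuclei of these libraries.

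Genes higher in the white sets were led by Cntnap2 and Epha6. Cntnap2, a neuronal adhesion protein, was at 588 and 792 CPM in mesPVAT and RP fat and at 79.4 and 78.0 in taPVAT and BAT, and the other nuclei held 755, 902, 102 and 79.2. Epha6, an ephrin receptor, was at 269 and 327 CPM against 34.4 and 29.3. Lrp1b, Gria1, Gpc5, Rims1, Csmd3, Dpp6, Agbl1 and Cemip made up the rest, with the lowest white over the highest brown level between 6.22 and 8.79. In the RefSeq table these genes span from 155501 bases (Cemip) to 2256901 (Cntnap2), with Lrp1b at 2121147. Gria1 (319566) and Rims1 (499647) also lie under 500 kb, and the others above it. Shares of long genes were taken over the UMIs of genes with a length in that table. These were 79.5% and 73.0% of all UMIs in mesPVAT and RP fat endothelial nuclei, and 84.9% and 85.1% in taPVAT and BAT. Of them, genes of 500 kb or more took 8.48% and 10.7% in mesPVAT and RP fat, against 5.67% and 5.81% in taPVAT and BAT. In the other nuclei of the white libraries they took 9.49% and 12.4%. Only 64.4% of the 1045 genes had a length in that table, so a comparison of lengths over them is void.

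Genes higher in the brown sets were led by mitochondrial transcripts and Ucp1. The mitochondrial transcript Mt-co1 was at 36.7 and 63.3 CPM in the white and at 1109 and 1240 in the brown endothelial nuclei. Ucp1 was at 50.9 and 31.7 against 620 and 739 CPM, and at 1984 and 2416 in the other nuclei of taPVAT and BAT. Fatty acid synthase (Fasn) was at 5.65 and 10.6 against 401 and 310 CPM. The other genes were Gpd1, Cpt1b, Mt-co3, Mt-nd4, Mt-atp6, Gnas, Tkt, Acadm and Thrsp. Over all 8825 genes tested, 4.78% were higher in brown and 11.8% in white. Of the lists of other cell types, 7 of 9 brown adipocyte and 6 of 11 adipocyte genes were higher in the brown sets, while 3 of 8 immune genes (Themis, F13a1 and Adgre1) and 1 of 3 lymphatic genes (Reln) were higher in the white sets. F13a1, for instance, was at 67.8 and 137 against 33.1 and 13.9 CPM, and at 72.9, 104, 54.1 and 17.9 in the other nuclei. The part of such transcripts in the other values was not tested.

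Capillary genes had the largest share of calls among the endothelial lists, with 4 of 7 tested higher in the brown sets (Car4, Meox2, Btnl9 and Kdr) and none higher in the white. Kdr was at 246 and 137 CPM in the white and 631 and 662 in the brown endothelial nuclei, and its level in the other nuclei was 77.5, 66.6, 60.1 and 49.4. Btnl9 was at 184 and 73.9 against 475 and 693, and Meox2 at 303 and 73.9 against 648 and 731. In the other nuclei Btnl9 ran from 19.98 to 54.5 and Meox2 from 63.9 to 80.6 CPM. Of the transcription factors 4 of 20 were higher in brown, Ets1 (223 and 169 against 708 and 712), Tcf4 (560 and 296 against 1763 and 1891), Mef2a and Bcl6b.

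Fatty acid handling genes gave 5 of 14 higher in brown, namely Meox2, Pparg, Lpl and the caveolins Cav1 and Cav2. Lpl and Pparg were higher still in the other nuclei of the brown libraries (2095 and 2376 CPM for Lpl), while Cav1 was at 136 and 84.5 against 411 and 486 in endothelial nuclei and at 63.7, 42.6, 90.9 and 102 in the others. Of 17 pan-endothelial genes 1, the sialomucin Podxl, passed 2-fold, higher in brown. Among the 9 Notch, 11 vasoactive and 5 haemostasis genes tested none passed in either direction. The genes of these lists higher in the white sets were Cenpe, Piezo2, a mechanosensitive channel (147 and 211 against 27.8 and 11.6 CPM), Bmper, Col18a1, the arterial connexin Gja5 (45.2 and 95 against 14.6 and 8.49) and the venous receptor Adgrg6. Piezo2 and Gja5 were also higher in the other nuclei of the white libraries, at 175 and 221 against 51.6 and 16.5 CPM and 36.1 and 58.6 against 6.91 and 6.37.

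On 10x the same rule found 120 mesPVAT nuclei with a median of 232 UMIs, 34578 UMIs in all. That library was made in another batch and annotated apart, so its levels are given alone. The pan-endothelial list stood at 5495 CPM (4741 to 6334) against 677 in its other nuclei. Unlike on Parse, fatty acid handling (0.725-fold, 0.594 to 0.863) and basement membrane genes (0.557-fold, 0.441 to 0.681) stood below the other nuclei. So did leukocyte adhesion (0.397-fold, 0.259 to 0.550) and immediate early and stress genes (0.842-fold, 0.7065 to 0.983). Guidance genes and transporters lay near 1, and the other endothelial lists above 1, some with intervals spanning it. Egfl7 was at 810 against 88.1 CPM, 9.43-fold (5.83 to 14.1), and Meox2 had 16 UMIs, 463 against 5.82 CPM. Rasip1, with 21 UMIs, was 5.43-fold and Nos3, with 8, 5.13-fold higher. Doc2b, Sema3g, Dll1, Crhr2 and Ushbp1, which led in mesPVAT on Parse, had no UMI there, which by a limit of 3 counts allows up to 86.8 CPM, above or near their levels on Parse except for Ushbp1 (238 CPM). Rbp7 had 3 UMIs there, 86.8 CPM (17.9 to 254) against 11.6, and Myh11 had none, which allows up to 86.8 CPM. Adcy4 had none either, and the same limit lies below its 161 CPM in mesPVAT on Parse. Col5a3 was at 0.126 times (0.0274 to 0.259) its level in the other nuclei.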

How the data were processed

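The authors split reads by species, aligned the rat Parse reads to GRCr8 with split-pipe and deposited UMI counts per gene and nucleus for the barcodes called as nuclei. The 10x library was counted with Cell Ranger. Counts were used as deposited, with no further filter. Members and gene lists were chosen with earlier results of these data known. Nuclei were selected by the rule, UMIs were summed over nuclei and scaled to CPM, and intervals were exact (Python 3.11.15, numpy 2.4.6, scipy 1.17.1, pandas 2.3.3). With 1 library per condition no test was run. Ratios had 1 UMI added to each count, and between depots genes needed 40 UMIs. Named genes were the most abundant of each list, the 15 leading genes of each library, and up to 12 genes past 2-fold per direction, ordered by the interval bound nearest 1, and genes named from lists elsewhere are those past 2-fold or discussed for their role, chosen after their values were seen. On simulated counts with 200 genes changed 4-fold, the mesPVAT and RP fat comparison recovered 186 and also called 51 of 2076 unchanged genes, and the white and brown comparison recovered 197 and called 17 of 10396. The changed genes were drawn from those with many expected UMIs, and the only noise was Poisson. The recovery of genes near 40 UMIs or near 2-fold was therefore not measured. Library depth ran from 845316 UMIs (RP fat) to 6317970 (BAT). Of the 8825 genes compared between white and brown, 701 have no symbol. Settings tried again were the thresholds of the rule, each endothelial gene left out, minimum depth, thinning to 200 UMIs, the sublibraries, the minimum UMIs per gene, the fold, the added count and the scaling. Of the lists and genes that met these rules, some are not reported here.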

Additional observations from a re-analysis of the deposited data

How the results depend on the processing

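No paired analysis was possible because each depot was 1 library per kit. The share of selected nuclei was above that of RP fat in mesPVAT at every setting tried. It was not so within each range of depth, with 20.8% in mesPVAT and 31.1% in RP fat from 800 to under 1500 UMIs. Over all nuclei the settings gave the following shares. The share was 23.7% in mesPVAT and 16.9% in RP fat with 1 endothelial UMI, 9.48% and 2.60% with 3, 6.94% and 2.67% with no opposing UMI, 16.1% and 8.45% among nuclei with at least 200 UMIs, 23.0% and 20.3% with at least 500, and 6.97% and 3.13% after thinning. It was 13% in mesPVAT when endothelial UMIs had to be 2 times the opposing ones. Without Ptprb it was 11.7% and 4.14%, without Mecom 10.2% and 3.28%, without Flt1 13.1% and 4.35%, and in mesPVAT 12.9% without Pecam1 and 12.3% without Shank3. The RP fat sublibraries gave 3.52% and 8.91%. Chosen after seeing the data, a minimum of 0.5% of UMIs gave 9.84% and 2.89%, and 2 different endothelial genes 12.7% and 4.31%. Counts of genes past 2-fold (290 higher in mesPVAT, 111 in RP fat, 1045 in white, 422 in brown) became 94, 14, 159 and 230 with no opposing UMI, where 365 and 2375 genes were tested, and 15, 2, 12 and 56 after thinning, where 48 and 829 genes were tested. With no opposing UMI, 50, 3, 118 and 115 of these were shared with the main calls. A minimum of 20 UMIs gave 553, 473 and 2553 (422 in brown), a minimum of 100 gave 104, 4, 277 and 353, and 3-fold gave 72, 7 and 117 (brown). The RP fat count was 62 with 3 endothelial UMIs and 210 with nuclei weighted equally. With genes under 500 kb alone, chosen after seeing the data, 174 were higher in mesPVAT, 674 in white and 239 in brown. With 0.5 UMI added, the counts were 337, 107, 1030 and 530. Recomputed levels of 8 lists in 4 libraries stayed within their interval 143 times and left it 113 times. The lymphatic list without Prox1 was also chosen after seeing the data. Depth limits all of this: RP fat endothelium held 94732 UMIs, so a gene with no UMI there could lie at up to 31.7 CPM by a limit of 3 counts, and gene names past 2-fold rest on few UMIs.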

Other observations

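Homeobox genes of the Hox clusters, which keep the position of a cell along the body axis, were looked at after their values were seen. Hoxb4 had 36 UMIs in 36 of the 436 mesPVAT endothelial nuclei, 102 CPM (71.3 to 141), and 24.6 CPM in the other nuclei of that library. It had none in RP fat endothelial nuclei, where a limit of 3 counts allows up to 31.7 CPM (exact upper bound 38.9), and 47.6 and 52.5 CPM in those of taPVAT and BAT. Hoxa9 had 22 UMIs in mesPVAT endothelial nuclei, 62.2 CPM (39.0 to 94.2), and 72.9 CPM in the other mesPVAT nuclei. It had none in RP fat, and 5.29 and 2.32 CPM in taPVAT and BAT endothelial nuclei. Hoxa3 was at 70.7, 73.9, 91.3 and 45.6 CPM in the 4 endothelial sets, with UMIs in each of them. With 1 library per depot these differences were not tested.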
